A study of Homo sapiens with 5 samples.

Results

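The 10 genes described here encode cytosolic and mitochondrial heat-shock proteins, and their nascent transcription was measured by PRO-seq, a run-on assay that captures the RNA still held by transcribing polymerases through biotin-tagged nucleotides. The members were chosen by Ensembl identifier: HSPA1A (ENSG00000204389), HSPA1B (ENSG00000204388), HSPA8 (ENSG00000109971), HSPH1 (ENSG00000120694), DNAJA1 (ENSG00000086061), HSP90AA1 (ENSG00000080824), HSP90AB1 (ENSG00000096384), HSPD1 (ENSG00000144381), HSPE1 (ENSG00000115541) and HSPB1 (ENSG00000106211). All 10 were found among the 20001 genes of the count table, and 9 passed the filter on low counts. HSPA1A did not pass.

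The cells were HEK293T, a human embryonic kidney line with SV40 large T antigen, grown in serum-containing medium with no heat or drug treatment named in the labels. Both groups were monoclonal and carried a landing pad, a chromosomal site engineered to receive DNA constructs. In 1 group the pad held the PGK promoter, from a glycolytic housekeeping gene (2 libraries), and in the other the strong synthetic CAG promoter (3 libraries). How many clones each promoter was tested in is not stated in the labels, so promoter and clone cannot be told apart, and a group is called a line here. They also do not say that replicates were separate cultures, so p-values reflect how far these libraries differ among themselves, which may be technical. Library totals ran from 3712105 counts in PGK replicate 2 to 5864157 in CAG replicate 3. The table names no gene, so other chaperone genes and markers of embryonic kidney or other cell types were not analysed here.

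Heat-shock proteins are chaperones that keep other proteins folded and soluble. HSP70 proteins bind unfolded stretches in a cycle driven by ATP, J-domain proteins bring them clients and start the ATP hydrolysis, and HSP110 proteins such as HSPH1 exchange the nucleotide. HSP90 proteins act later on nearly folded clients such as kinases and steroid receptors, and a chaperonin chamber made of HSPD1 with its lid HSPE1 folds proteins inside mitochondria. Under stress the transcription factor HSF1 trimerises and binds heat-shock elements, inverted repeats of the unit GAA, and paused polymerases at these genes are released. Some members, such as HSPA8 and HSP90AB1, are also transcribed strongly without stress.

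Promoters of the members were searched for these elements in RefSeq windows of 250 bases before to 50 bases after each annotated start (GRCh38.p14, whereas the counts were made on hg19). The 10 genes had 14 windows. A run of 3 units, which is GAA, 2 free bases, TTC, 2 free bases and GAA, or its reverse complement, lay in a window of 5 of the 10 genes (DNAJA1, HSP90AA1, HSP90AB1, HSPA8 and HSPD1), against 0.608% of all 27305 gene symbols and 0.49% of all 35116 windows. The shorter GAANNTTC, which reads the same on both strands and is part of each longer match, was found in 8 of the 10 genes and in 8.21% of all symbols. TTCNNGAA, the other palindrome inside the longer match, was found in the same 5 genes as the longer run and in 9.46% of all symbols. HSPH1 and HSPE1 held neither in their windows. Both HSPA1A and HSPA1B held TATAAA, found in either orientation in 14.0% of symbols. CCAAT in either orientation was found in HSP90AA1, HSPA1A, HSPA1B and HSPA8 and in 39.7% of symbols. These letter matches are descriptions and not measured binding sites.

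The stretches below show 1 match before a start in 6 of the genes, each 30 bases long on the gene's strand, 5′ to 3′, with the matching letters in capitals. The match shown for each gene was chosen after the matches were seen; HSPA8 and HSP90AB1 held a further run of 3 units before a start, and HSPD1 held one that overlaps the run shown. HSPA1A and HSPA1B are shown with the short match because their windows resemble each other: over 299 aligned bases they were identical at 277 (92.6%). Outside these windows the copies were not compared.
HSPA8, 55 bases before the start, chr11:123062170-123062199, minus strand: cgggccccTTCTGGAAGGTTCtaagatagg
HSP90AA1, 88 bases before the second start, chr14:102087111-102087140, minus strand: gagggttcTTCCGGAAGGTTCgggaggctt
HSP90AB1, 112 bases before the third start, chr6:44247823-44247852, plus strand: tgagattgTTCTGGAAGCTTCtggattctg
HSPD1, 245 bases before the second start, chr2:197500061-197500090, minus strand: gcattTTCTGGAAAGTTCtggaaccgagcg
HSPA1A, 106 bases before the start, chr6:31815426-31815455, plus strand: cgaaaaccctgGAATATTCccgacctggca
HSPA1B, 105 bases before the start, chr6:31827622-31827651, plus strand: cgaaacccctgGAATATTCccgacctggca

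Of the heat-shock genes, 3 were called different between the lines, and only HSPH1 kept its call in every alternative with both PGK libraries. HSPH1 was 1.5-fold higher in the CAG line, but so were most rows around it in the count table. Of its 20 nearest tested rows, 16 were called higher and 0 lower. HSPA8 was called lower in the CAG line, but that call rested on PGK replicate 2. HSPD1 was called slightly lower, and the other 6 tested members did not pass the test. The question behind the comparison is how alike the lines are in nascent transcription, since the series was made to relate it to RNA levels of the same cells. Levels are given as CPM, counts scaled by the TMM-adjusted library size, and tests are edgeR's quasi-likelihood test of CAG over PGK, adjusted over all 13400 tested genes.

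At an adjusted p under 0.05 in edgeR, the CAG line was higher at 1 of the 9 tested members and lower at 2. Over all tested genes 22.7% were called higher and 20.7% lower, 43.4% in all, so the members' share of 33.3% was not above the background. The median log2 fold change of the 9 members was -0.13, and the median size was 0.21, against a median size of 0.25 over all tested genes. The libraries of the lines did not overlap for 6 of the 9 members, where 61.2% of all tested genes did not overlap.

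**Figure D1:**
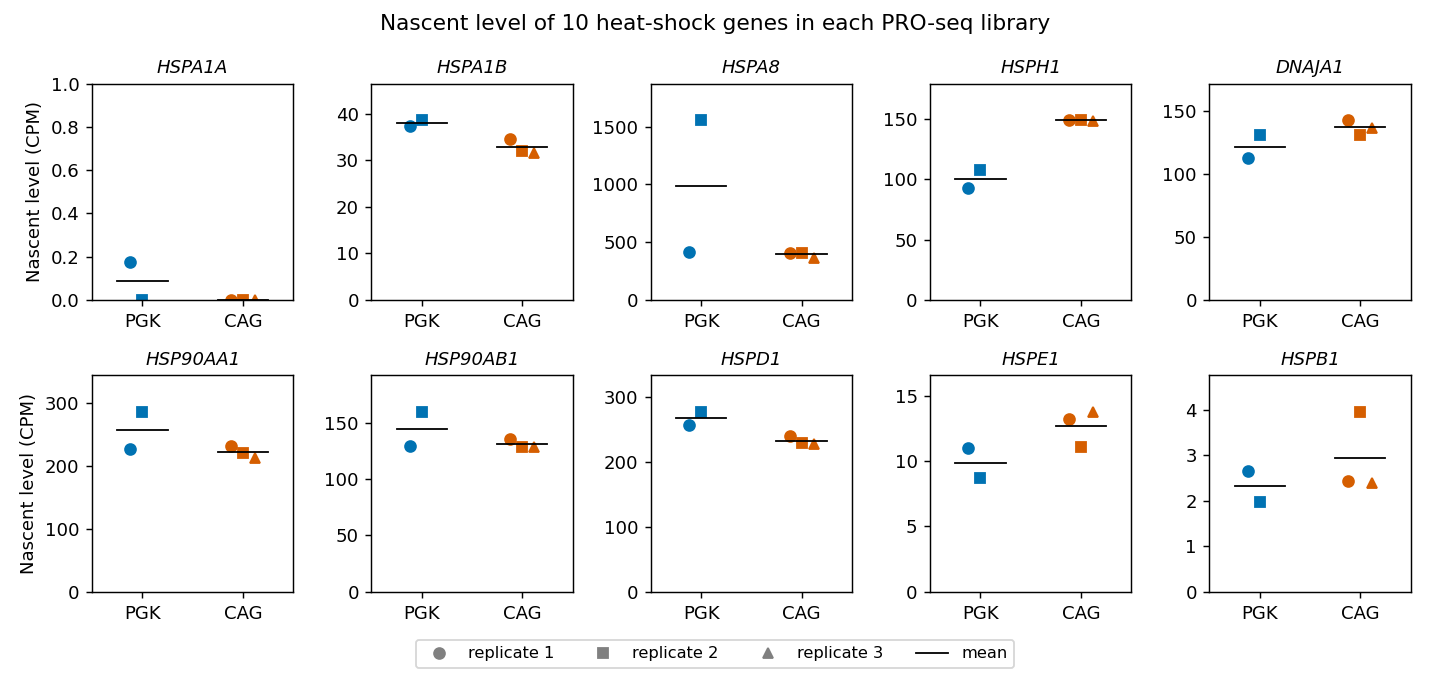
Nascent level (CPM, linear axis from 0, own scale in each panel) of the 10 heat-shock genes in 2 PGK and 3 CAG libraries, with marker shape for the replicate number and a bar for the mean of each line. HSPA8 stood at 1560 CPM in PGK replicate 2 and at 367 to 417 CPM in the other libraries, and HSPH1 was higher in every CAG library than in either PGK library.

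HSPA8 encodes HSC70, the constitutive cytosolic HSP70. It was counted 2352 and 5564 times in PGK replicates 1 and 2, of which the second is the smaller library, and 1994, 2066 and 2158 times in CAG replicates 1 to 3. This is 417 CPM in PGK replicate 1, 1560 CPM in PGK replicate 2, and 406, 409 and 367 CPM in the CAG libraries. PGK replicate 2 thus stood far above the other 4 libraries, which lay close together, and PGK replicate 1 was just above the highest CAG library. The line means were 989 ± 808 CPM (SD, n = 2) for PGK and 394 ± 23.1 CPM (SD, n = 3) for CAG. edgeR gave a log2 fold change of -1.32 ± 0.24 (SE) with an adjusted p of 8.89e-05.

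That call for HSPA8 rested on PGK replicate 2. With that library left out the log2 fold change was -0.08, and without PGK replicate 1 it was -1.996. Each of these fits left a lone PGK library, so no p is given. With robust dispersion estimates, an alternative added after the data were seen, the log2 fold change stayed at -1.32 but its SE was 0.66 (edgeR adjusted p = 0.223). DESeq2 gave -1.34 ± 0.67 (SE) with an adjusted p of 0.123. HSPA8 ranked 6 by level among the 13400 tested genes in PGK replicate 2, and between 109 and 189 in the other libraries.

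The difference between the PGK libraries was 3.74-fold for HSPA8, a log2 difference of 1.90. Among 9545 genes that averaged 20 CPM or more and were counted in every library, 2 genes, HSPA8 included, differed by as much in that direction. The median gene differed by 0.03 (log2), and the 10th and 90th percentiles were -0.25 and 0.23. PGK replicate 2 was at least 2-fold above replicate 1 for 27 of these genes and at least 2-fold below for 7. The 20 tested rows nearest to HSPA8 in the table had a median difference of -0.04 between the same libraries and a highest difference of 1.08. RefSeq places 3 small nucleolar RNA genes (SNORD14C, SNORD14D and SNORD14E) within the span of HSPA8. Another (SNORA105B) overlaps the span of HSPD1. The table has 1 value per gene, and the counted part of each gene is not given in the sources used here.

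The other members were also higher in PGK replicate 2 than in replicate 1 where they reached 20 CPM, but by far less. The log2 differences were 0.34 for HSP90AA1, 0.30 for HSP90AB1, 0.22 for DNAJA1, 0.21 for HSPH1, 0.11 for HSPD1 and 0.06 for HSPA1B. Of the 9545 genes, 57.7% were higher in PGK replicate 2, and 3.07% rose as much as HSP90AA1 or more. All 7 members compared were thus on the side of the majority, and HSPA8 alone among them was over 2-fold apart. The share of genes rising as much or more was 0.021% for HSPA8, 4.56% for HSP90AB1 and 12.2% for DNAJA1. It was 12.6% for HSPH1, 32.1% for HSPD1 and 45.6% for HSPA1B. In the CAG line the log2 distance between the highest and lowest library ran from 0.01 for HSPH1 to 0.15 for HSPA8, beside a median of 0.13 over the 9545 genes.

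**Figure D2:**
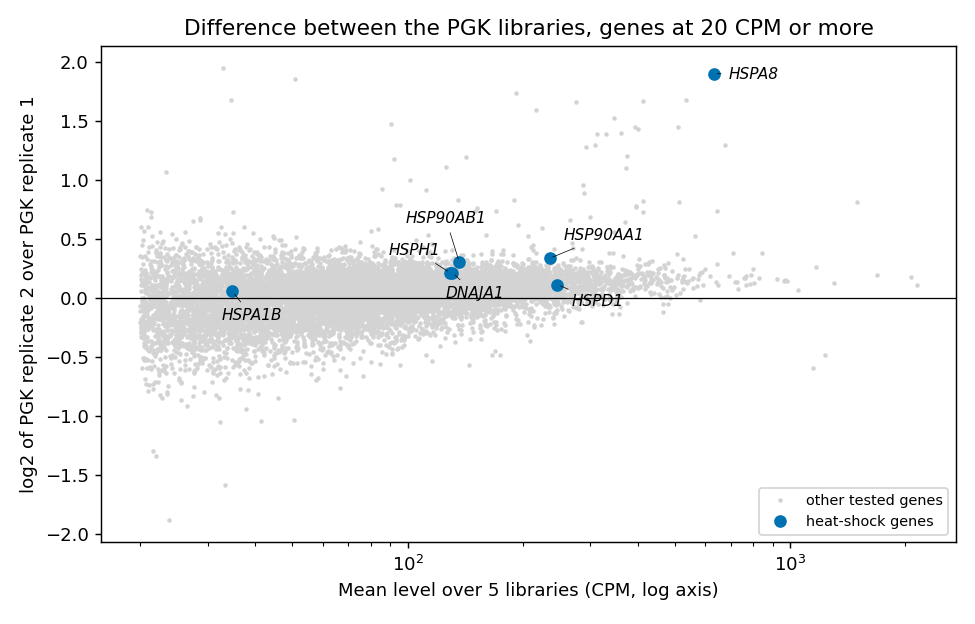
log2 of PGK replicate 2 over PGK replicate 1 against the mean level over 5 libraries (CPM, log axis) for 9545 tested genes, with the 7 heat-shock genes among them in blue. HSPA8 lies at 1.90, and the other 6 lie between 0.06 and 0.34.

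The inducible HSP70 genes were counted almost wholly at 1 of their copies. HSPA1B was counted 210 and 138 times in the PGK line and 170, 162 and 186 times in the CAG line, 866 in all. HSPA1A had 1 count in PGK replicate 1 and 0 in each of the other 4 libraries. Its 0 counts in the CAG line allow a level of up to 0.189 CPM (3 counts over its 3 libraries, counting error only). The copies lie in successive rows of the table and are known as closely similar genes, but their transcribed sequences were not compared here. How reads that match both were treated is not given in the sources used here, so the level of each copy is uncertain.

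HSPA1B stood at 37.2 and 38.7 CPM in PGK replicates 1 and 2 and at 34.6, 32.0 and 31.6 CPM in the CAG libraries. Each CAG library was below both PGK libraries. With a log2 fold change of -0.21 ± 0.11 (SE), HSPA1B did not pass the test (edgeR adjusted p = 0.142), and with both copies summed it was -0.21 again (edgeR adjusted p = 0.134). Transcription of the inducible HSP70 genes, counted almost wholly at HSPA1B, was thus measured in both lines without heat treatment in the labels. No difference was called.

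HSPH1 encodes HSP110, the nucleotide exchange partner of HSP70. Its level was 92.9 and 108 CPM in PGK replicates 1 and 2 and 150, 149 and 148 CPM in the CAG libraries. The CAG libraries were nearly equal and all lay above both PGK libraries. The means were 100 ± 10.4 CPM (SD, n = 2) and 149 ± 0.763 CPM (SD, n = 3), which is 0.58 ± 0.08 (SE) as a log2 fold change (edgeR adjusted p = 7.05e-07). The call was kept in every alternative that had both PGK libraries, although summing HSPA1A and HSPA1B could not have changed it. Without PGK replicate 1 the log2 fold change was 0.46, and without PGK replicate 2 it was 0.68. Each of these fits left a lone PGK library, so no p is given. The other alternatives lay between these values.

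The rows around HSPH1 moved with it. Of the 20 nearest tested rows, 10 on each side, 16 were called higher in the CAG line and 0 lower, and their median log2 fold change was 0.54. HSPH1 differed from that median by 0.04, and 7 of the 20 neighbours rose as much or more. With 25 rows on each side the median was 0.55, and 39 of 50 were called higher and 0 lower. What the row order stands for is not stated in the sources used here. Among members with a promoter match shown or counted above, rows rose with chromosome and position. They ran from HSPD1 on chromosome 2 (row 2988) through HSPA8 on chromosome 11 (row 11407) to HSP90AA1 on chromosome 14 (row 13469). HSPH1 was row 12632. The positions of its neighbours were not looked up, and whether HSPH1 shares a cause with them was not tested. Within 0.2 (log2) of the median of all tested genes lay the neighbour medians of each of the other 8 tested members, from -0.13 for HSPA8 to 0.01 for HSPA1B.

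**Figure D3:**
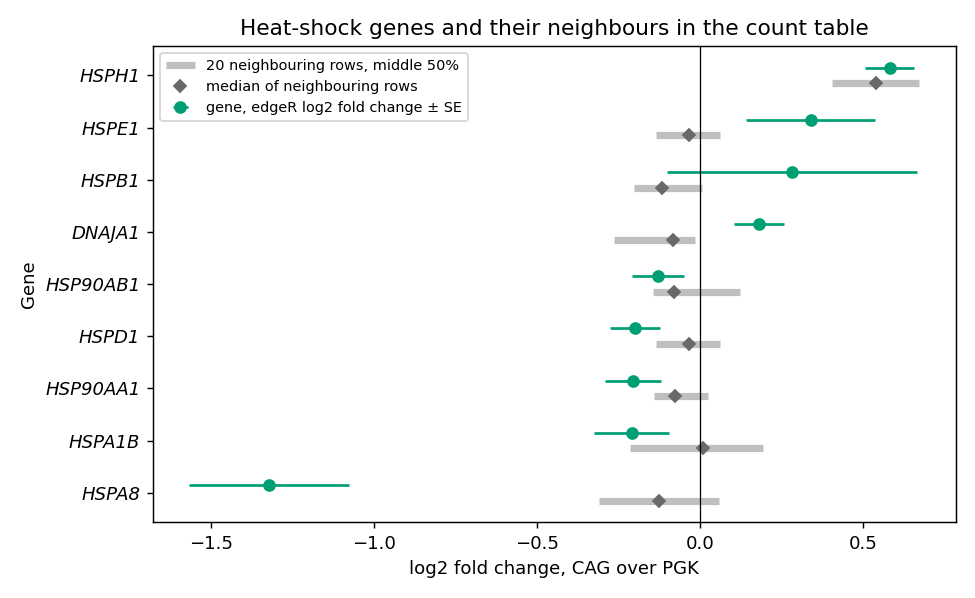
edgeR log2 fold change of CAG over PGK with its SE for the 9 tested heat-shock genes (green), and the median and middle 50% of the log2 fold changes of the 20 tested rows nearest to each gene (grey). HSPH1 at 0.58 lies within the range of its neighbours (median 0.54), whereas HSPA8 at -1.32 lies below its neighbours (median -0.13).

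DNAJA1, a J-domain partner of HSP70, stood at 113 and 131 CPM in PGK replicates 1 and 2 and at 143, 131 and 137 CPM in the CAG libraries. The lowest CAG library was above the highest PGK library by 131.11 against 130.94 CPM. Its log2 fold change was 0.18 ± 0.08 (SE), short of the threshold (edgeR adjusted p = 0.0562). Without PGK replicate 2 it was 0.28, and without PGK replicate 1 it was 0.06. Each of these fits left a lone PGK library, so no p is given. DNAJA1 passed with upper-quartile scaling, without CAG replicate 2 and with robust dispersion estimates (edgeR adjusted p = 0.022, 0.0483 and 0.0413). Its 20 neighbours had a median of -0.08, with 2 called higher and 6 lower.

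The cytosolic HSP90 genes had the same library on top. HSP90AA1, the more stress-inducible isoform, had 226 and 286 CPM in PGK replicates 1 and 2 and 231, 221 and 212 CPM in the CAG libraries. HSP90AB1, the constitutive isoform, had 130 and 160 CPM in PGK replicates 1 and 2 and 136, 129 and 129 CPM in the CAG libraries. In both genes PGK replicate 2 was the highest library, and PGK replicate 1 lay within the range of the CAG libraries.

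Neither HSP90 gene passed the test. The log2 fold change was -0.21 ± 0.09 (SE) for HSP90AA1 (edgeR adjusted p = 0.0551) and -0.13 ± 0.08 (SE) for HSP90AB1 (edgeR adjusted p = 0.194). With either PGK library left out, the other stood alone and gave no spread for its line, so no p is given. Without PGK replicate 1 the log2 fold change was -0.38 for HSP90AA1 and -0.30 for HSP90AB1. Without PGK replicate 2 they were at -0.03 and 0.02. The direction for HSP90AB1 thus turned with the PGK library used. With all libraries, HSP90AA1 passed without the filter on low counts and with robust dispersion estimates (edgeR adjusted p = 0.0245 and 0.0276).

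The mitochondrial chaperonin genes HSPD1 and HSPE1, which lie in successive rows of the table and in opposite orientation with overlapping RefSeq windows, had fold changes of opposite sign. HSPD1, which forms the chamber, stood at 256 and 278 CPM in PGK replicates 1 and 2 and at 239, 229 and 228 CPM in the CAG libraries. Every CAG library was below both PGK libraries. The log2 fold change was -0.20 ± 0.08 (SE; edgeR adjusted p = 0.0337), so the PGK line was 1.15-fold higher.

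The call for HSPD1 was not stable. It was lost in 6 of the 15 alternatives, among them without PGK replicate 2, where a lone PGK library was left. It was also lost without CAG replicate 1, 2 or 3 (edgeR adjusted p = 0.0879, 0.121 and 0.146). With all libraries thinned to the smallest total it was lost as well (edgeR adjusted p = 0.105). The direction was kept in all 15 alternatives, with log2 fold changes between -0.27 and -0.14.

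HSPE1, the lid, was scarce, counted 62 and 31 times in the PGK line and 65, 56 and 81 times in the CAG line. It stood at 10.99 and 8.69 CPM in the PGK line and 13.2, 11.1 and 13.8 CPM in the CAG line, so the lines were separated by 11.07 against 10.99 CPM. HSPE1, at a log2 fold change of 0.34 ± 0.20 (SE), did not pass the test (edgeR adjusted p = 0.173). RefSeq lists a read-through gene, HSPE1-MOB4, that overlaps HSPE1, and how shared reads were counted is not known here. The neighbours that HSPD1 and HSPE1 share had a median of -0.03, with 0 of 20 called higher and 1 lower.

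HSPB1, the small heat-shock protein HSP27, was near the lower limit of what was measured. It was counted 15 and 7 times in the PGK line and 12, 20 and 14 times in the CAG line, or 2.66, 1.96, 2.44, 3.96 and 2.38 CPM in the same order. The libraries of the lines overlapped. The log2 fold change was 0.28 ± 0.38 (SE; edgeR adjusted p = 0.585), so a difference of this size was not detectable at this depth.

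Ratios between related members within a library do not depend on library scaling. The log2 ratio of HSP90AA1 to HSP90AB1 was 0.80 and 0.84 in PGK replicates 1 and 2 and 0.76, 0.78 and 0.72 in the CAG libraries, a difference of -0.07 between the line means. Over the 5 libraries this ratio spanned 0.12 log2 units, whereas log2 CPM of HSP90AA1 spanned 0.43 and that of HSP90AB1 spanned 0.31. For HSPD1 over HSPE1 the log2 ratio was 4.49 and 4.93 in PGK replicates 1 and 2 and 4.14, 4.32 and 4.01 in the CAG libraries. The difference between the line means was -0.56, with an SD of 0.31 in the PGK line and 0.16 in the CAG line, and it rests on the scarce counts of HSPE1.

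HSPH1 over HSPA8 gave log2 ratios of -2.16 and -3.85 in PGK replicates 1 and 2 and -1.44, -1.45 and -1.31 in the CAG libraries. DNAJA1 over HSPA8 gave -1.88 and -3.57 in PGK replicates 1 and 2 and -1.50, -1.64 and -1.42 in the CAG libraries. For both, PGK replicate 1 lay nearer to the CAG libraries than to PGK replicate 2. HSPA8 over the summed HSPA1A and HSPA1B gave 3.46 and 5.32 in PGK replicates 1 and 2 and 3.54, 3.66 and 3.52 in the CAG libraries, which overlapped. The ratio of HSPA1B to HSPA1A rests on 1 count of HSPA1A and is not read.

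The lines did not overlap in 4 of the 6 ratios. The share among ratios of other gene pairs was not computed, and 61.2% of single tested genes did not overlap. Exact two-sided permutation tests over the libraries gave p = 0.2 for these 4 (0.3 after Benjamini-Hochberg adjustment over the 6) and p = 0.8 for the other pair. In the two-sided form used here, p cannot go below 0.2 with 2 against 3 libraries, so no ratio could pass.

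**Figure D4:**
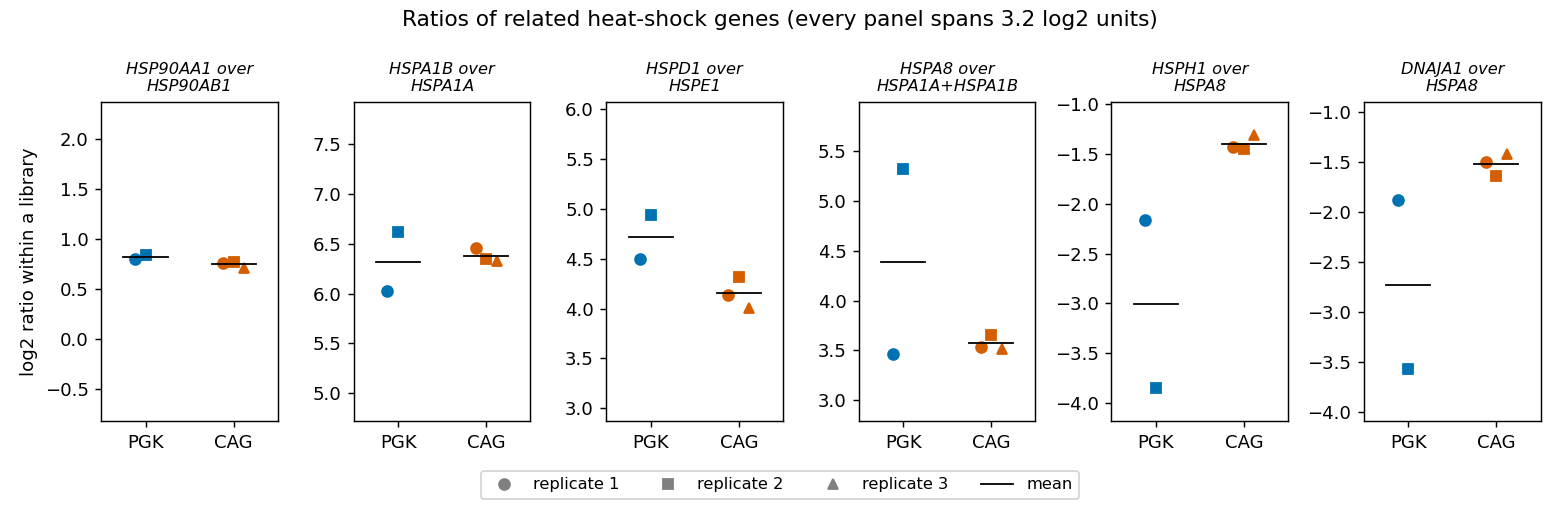
log2 ratio of 6 pairs of related heat-shock genes within each library, for 2 PGK and 3 CAG libraries, with a bar for the mean of each line and the same axis length in every panel. HSP90AA1 over HSP90AB1 stayed between 0.72 and 0.84, whereas the ratios with HSPA8 were set apart in PGK replicate 2.

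Together the 10 genes took 0.13% and 0.247% of the counts in PGK replicates 1 and 2 and 0.137%, 0.133% and 0.127% in the CAG libraries. PGK replicate 2 was the only library set apart. HSPA8 made up 0.15% of the counts of PGK replicate 2 and 0.0368% to 0.0421% of the others. Without HSPA8, the other 9 genes took 0.0925% ± 0.00661 (SD, n = 2) in the PGK line and 0.0925% ± 0.00282 (SD, n = 3) in the CAG line. These shares are descriptions without a test.

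To compare levels between genes, CPM were divided by the RefSeq gene span in kilobases (GRCh38.p14), although the counted part of each gene is not known here. On this scale HSPA8 was highest, at 73.8 to 314 CPM per kilobase over the 5 libraries. HSP90AB1 (16.7 to 20.8) and HSPD1 (16.7 to 20.3) came next with overlapping ranges, followed by HSPA1B (12.6 to 15.4) and DNAJA1 (7.71 to 9.78). HSPH1 (3.39 to 5.45), HSP90AA1 (3.59 to 4.84) and HSPE1 (2.83 to 4.49) overlapped each other, and HSPB1 (1.21 to 2.44) was below them. HSPA1A, with 1 count over all libraries, was lowest at 0 to 0.0739. The value for HSP90AA1 uses a span of 59.0 kilobases that reaches to its first annotated start. The same counts over a shorter span would give a higher value. RefSeq also lists another gene, WDR20, that overlaps this span, and how shared reads were counted is not known here.

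Genes with a profile like the members' were sought by the root mean square difference of centred log2 CPM over the 5 libraries. Among 9541 other genes averaging 20 CPM or more, the closest to the mean profile of the 10 members were ENSG00000114978 (0.01 log2 units) and ENSG00000122435 (0.0162). Neither was called between the lines (edgeR adjusted p = 0.654 and 0.81). The mean profile was highest in PGK replicate 2, at 0.14, and between -0.06 and -0.01 in the other 4 libraries. Without HSPA8 and HSPA1A, chosen after the data were seen, it was -0.08 and -0.01 in PGK replicates 1 and 2 and 0.05, 0.04 and 0.00 in the CAG libraries, and the 3 closest genes were different ones.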

How the data were processed

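Per the submitters' processing notes, reads were handled with featureCounts 2.0.3, UMI-tools, HISAT2 2.2.1, Bowtie2 2.5.1, cutadapt and fastp 0.23.2 on hg19. The authors deposited raw counts by Ensembl identifier, 1 column per library. The annotation, strand setting and counted part of each gene are unknown here. Each of the 5 columns matched a sample by its description, and 18 rows without an identifier (13 to 25 counts per library) were left out. Genes kept by filterByExpr (minimum count 10, minimum total 15) were TMM-scaled and tested with edgeR 4.0.16 (R 4.3.3). SE is the size of the log2 fold change divided by the root of F. Log2 CPM had a prior count of 2, and calls had an adjusted p under 0.05. Alternatives used DESeq2 1.42.0 and limma 3.58.1 among others, and the tests were tried on simulated data. The members, named through the rule that chose them, and the lists and tests were chosen with earlier results of these data known. All 10 members were to be named. The chaperone and marker lists needed names for other identifiers and were not analysed here. The 3 genes closest in profile were to be named, of which 2 are printed. Ratios used exact permutation tests (scipy 1.17.1).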

Additional observations from a re-analysis of the deposited data

Results flagged for a closer look

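The 18 rows without a gene identifier, which no comparison used, held 95 counts over the 5 libraries. No test for a single library apart from its group was run, because neither line had 4 libraries.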

How the results depend on the processing

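The count of 5818 called genes stayed within 1.5 times in all 15 alternatives, from 3943 (DESeq2) to 6024 (no filter). Leaving out 1 library gave 4754 to 5689 called genes, and a lone PGK library was taken to vary as the CAG line does. Among the 9 tested heat-shock genes, 3 were called in the main setting and 2 to 4 in the alternatives with all libraries, and leaving out 1 library gave 2 to 5. The replicate block gave 4667 called genes, HSPA8 and HSPH1 among them (2 of the 9), and HSPD1 lost its call (edgeR adjusted p = 0.258). Libraries that share a number had correlations of 0.04 and -0.07 between their deviations, so no pairing was assumed. The next tally includes fits with a lone PGK library. It also includes the sum of HSPA1A and HSPA1B, which could hardly move members other than HSPA1B. Of 135 gene results under alternatives, 117 kept direction and side of the threshold, 9 lost a call, 8 gained one and 1 turned. That one was HSP90AB1, whose log2 fold change ran from -0.30 to 0.018 with 1 library left out, the latter without PGK replicate 2. The share of counts in the 10 genes, CAG minus PGK, was -0.0563 percentage points, ran from -0.115 to 0.00227 with 1 library left out (highest without PGK replicate 2), and was 6.38e-05 without HSPA8, since HSPA8 in PGK replicate 2 carried it. The number of ratios whose lines did not overlap was 4, and it stayed at 4 with 1 CAG library left out. It was 6 only with a lone PGK library, where separation is easier. The median level of the 10 genes (130 CPM) ran from 126 to 137 CPM with 1 library left out. Robust estimation and the sums and profiles without HSPA8 were chosen after seeing the data. Neighbours in a reference order and gene lists were not run, because the tables do not pair identifiers with names. Depth limits HSPB1 and HSPE1, with SE of 0.38 and 0.20 on the log2 scale.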
